A study of Mus musculus with 9 samples.

Results

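Translation initiation factors are the proteins that load a ribosome onto a messenger RNA and place it at the start codon. Of 19454 genes listed in the deposited tables, 52 were taken as initiation factor genes by symbol: all symbols that begin with Eif1 to Eif6, without Eif5a, Eif5a2, Eif2s3x, Eif2s3y, the eIF2 kinases (Eif2ak symbols) and pseudogenes. They comprise 9 eIF2 genes, 14 eIF3 genes, 18 eIF4 genes and 11 others (8 eIF1 genes, Eif5, Eif5b and Eif6). The rule itself uses symbols only. After edgeR's filter on low counts 49 of the 52 could be tested, and Eif1ad2, Eif1ad6 and Eif4a3l1 could not.

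The libraries were made from 1500 sorted hematopoietic stem cells (HSCs) of wild-type mouse bone marrow, in a study of psychological stress and HSC ageing. There were 3 libraries from mice with chemogenetic inhibition of mPFC and PAG plus a spermidine supplement, 3 from mice with the same inhibition alone, and 3 from control mice. mPFC (medial prefrontal cortex) and PAG (periaqueductal gray) are brain regions, and spermidine is a polyamine. They are called spermidine, inhibition and control libraries here, and the spermidine mice therefore carried the inhibition too. The library names mark the inhibited groups as AAV, the usual abbreviation of the viral vector adeno-associated virus. The labels give no age, sex, promoter, receptor, dose or source animal, do not say whether control mice received a virus, and hold no spermidine group without inhibition. Since nothing says that the libraries of a group came from separate mice, p-values measure the spread between these libraries, which may be technical.

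Total counts per library were 16096276 to 25360256. The sorted label was checked against 12 HSC markers, whose summed level was 502.4 to 507.3 CPM (counts scaled to library size) in spermidine libraries, 374.4 to 384.7 CPM in inhibition libraries and 306.6 to 310.7 CPM in control libraries. Ly6a averaged 94.4 CPM in spermidine libraries and 83.5 CPM in inhibition libraries, but 6.21 CPM in control libraries, where Procr averaged 0.125 CPM, below the 0.147 to 0.170 CPM that 3 counts give in those libraries. The HSC list was mixed, since Slamf1 averaged 13.8 CPM in spermidine, 17.6 CPM in inhibition and 104.4 CPM in control libraries. Summed levels of 12 neutrophil granule genes were 15870 to 16300 CPM in spermidine libraries, 49100 to 50370 CPM in inhibition libraries and 1247 to 1264 CPM in control libraries. The 8 plasma and B cell markers summed to 1743 to 1884 CPM in spermidine, 4605 to 5019 CPM in inhibition and 81.97 to 83.53 CPM in control libraries. The 8 megakaryocyte and platelet markers summed to 141.7 to 148.4 CPM in spermidine, 142.6 to 151.7 CPM in inhibition and 2958 to 2983 CPM in control libraries. Erythroid markers (7 of 8 listed) summed to 1170 to 1222 CPM in spermidine libraries, 1263 to 1297 CPM in inhibition libraries and 3376 to 3436 CPM in control libraries, a sum carried by Car1 and Car2. The globin genes of that list went the other way, and Hba-a2 averaged 142.7 CPM in spermidine, 326.8 CPM in inhibition and 47.8 CPM in control libraries. T and NK cell markers (7 of 8 listed) summed to 997.4 to 1076 CPM in spermidine, 1894 to 2005 CPM in inhibition and 1274 to 1359 CPM in control libraries. The 8 monocyte and macrophage markers summed to 494.1 to 518.9 CPM in spermidine, 1025 to 1049 CPM in inhibition and 533.3 to 549.5 CPM in control libraries. No marker gene in the table was at 0 in all libraries of a group. These sums differed without overlap in every comparison below, except the megakaryocyte and platelet sum in spermidine over inhibition. Their part in the results was not tested. In such bulk libraries fewer cells of a type and less RNA per cell cannot be told apart.

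As background, initiation begins when eIF2 carries the initiator methionyl-tRNA to the small ribosomal subunit as a ternary complex with GTP. eIF1, eIF1A, eIF5 and the large eIF3 complex bind the same subunit, while eIF4E, eIF4A and eIF4G (together eIF4F) bind the cap of the mRNA and unwind it so that the subunit can scan to the start codon. The 4E-BP proteins hold back eIF4E, and eIF5B joins the large subunit. Protein synthesis is known to be kept low in HSCs compared with their progeny, and high translation rates are known to harm stem cell function.

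The promoters below belong to members that carry the E-box letters CACGTG, read by MYC and related factors. Eif4a2, Eif4e2, Eif2d, Eif5 and Eif2s1, on which the results turn as well, have no E-box in their windows and are not shown. Each sequence is the 250 bases upstream of the RefSeq start (GRCm38.p6), written 5′ to 3′ on the gene's strand. The E-box letters are in capitals.
Eif4e, cap-binding protein, chr3:138527018-138527267, plus strand: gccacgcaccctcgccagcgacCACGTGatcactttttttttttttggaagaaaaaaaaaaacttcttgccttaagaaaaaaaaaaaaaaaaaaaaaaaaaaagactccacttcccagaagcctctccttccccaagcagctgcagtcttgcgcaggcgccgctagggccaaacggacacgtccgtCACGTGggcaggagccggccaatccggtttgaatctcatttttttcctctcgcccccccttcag
Eif4a1, helicase, chr11:69672424-69672673, minus strand: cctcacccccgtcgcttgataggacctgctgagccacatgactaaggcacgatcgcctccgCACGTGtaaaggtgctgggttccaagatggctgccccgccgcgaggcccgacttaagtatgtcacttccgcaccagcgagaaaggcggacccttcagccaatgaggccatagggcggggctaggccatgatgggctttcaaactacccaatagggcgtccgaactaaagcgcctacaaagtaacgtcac
Eif4g1, scaffold, chr16:20672477-20672726, plus strand: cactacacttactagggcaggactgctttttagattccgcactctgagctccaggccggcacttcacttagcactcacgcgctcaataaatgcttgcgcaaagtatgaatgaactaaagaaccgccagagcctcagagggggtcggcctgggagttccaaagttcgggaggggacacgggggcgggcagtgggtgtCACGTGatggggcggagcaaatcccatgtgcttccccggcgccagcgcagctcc
Eif3f, eIF3 subunit, chr7:108934165-108934414, plus strand: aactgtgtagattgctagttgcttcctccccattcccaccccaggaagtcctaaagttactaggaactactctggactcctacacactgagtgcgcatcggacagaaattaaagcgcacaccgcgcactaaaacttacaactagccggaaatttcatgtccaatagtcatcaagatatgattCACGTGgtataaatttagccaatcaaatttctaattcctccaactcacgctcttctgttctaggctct
Eif3k, eIF3 subunit, chr7:28981889-28982138, minus strand: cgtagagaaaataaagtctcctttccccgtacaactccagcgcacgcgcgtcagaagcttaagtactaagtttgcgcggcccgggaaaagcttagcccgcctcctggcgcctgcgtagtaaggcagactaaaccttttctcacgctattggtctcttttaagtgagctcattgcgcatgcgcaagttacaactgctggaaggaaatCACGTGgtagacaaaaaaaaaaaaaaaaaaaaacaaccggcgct
The Eif4e sequence lies before the downstream of 2 RefSeq starts, and the window before the other start holds no E-box. CACGTG reads the same on both strands. It was found in 7 of 36 members with a promoter entry (19.4%), against 8.67% of 13480 listed genes with one. The other carriers were Eif1b and Eif4h. The members that carry it did not move one way: in inhibition over control the log2 fold change was 0.68 for Eif4e, 0.42 for Eif3k and 0.11 for Eif4a1, but -0.26 for Eif1b, -0.40 for Eif4h, -0.75 for Eif3f and -1.58 for Eif4g1. Of the other motifs searched on both strands, the GC box GGGCGG was in 72.2% of member windows and 55.1% of listed genes. The ETS letters CCGGAAG were in 27.8% and 12.5%, CCAAT in 30.6% and 40.3%, the palindromic NRF1 motif in 2.78% and 1.53%, and the cyclic AMP response element TGACGTCA in 0% and 2.55%. These matches are descriptions of letters, not of bound sites, and none of the E-boxes in these 7 members overlapped another motif searched.

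The first comparison asks how brain inhibition changed initiation factor transcripts. In inhibition over control, 12 members rose, 27 fell and 10 did not pass. The threshold was an adjusted p of 0.05 in edgeR, with the Benjamini-Hochberg correction made over the 14461 genes that entered the fit. Over all genes 36.2% were called higher and 36.1% lower, and 72.4% were called in either direction, so that being called was common. The share of members called lower, 55.1%, stood beside a share called higher of 24.5%. The median log2 fold change was -0.24 over the members and 0.02 over all genes. Libraries of both groups did not overlap for 40 members, against 74.5% of all genes. All 12 higher calls and 20 of the 27 lower calls were also made with total count scaling, with DESeq2's size factors and in TPM (transcript abundance scaled to library size and divided by transcript length). Of member calls 30.8% were upward in the counts and 45.9% in TPM (17 higher and 20 lower). Over all genes 50.1% of calls were upward in the counts and 53% in TPM.

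The second comparison asks what the spermidine supplement changed in mice with the inhibition. In spermidine over inhibition, 8 members rose and 28 fell, against 29.1% of all genes called higher, 28.9% called lower and 58.1% called in either direction. The median log2 fold change was -0.13 over the members and 0.03 over all genes. Libraries of both groups did not overlap for 40 members, against 62.8% of all genes. These directions are relative to the typical gene, because the spermidine libraries had TMM scaling factors of 1.123 to 1.138 and the other libraries of 0.931 to 0.950. Scaling by total counts raised the log2 fold change of the median gene by 0.26, and then 21 members were called higher and 8 lower. In TPM, 21 were called higher and 0 lower. The share of member calls that were upward was thus 22.2% with TMM factors, 72.4% with total counts and 100% in TPM. Over all genes 50.2%, 81.1% and 81.5% of calls were upward in the same fits. Relative to the median gene of the same fit, 38 of 49 members lay below it with either count scaling, and 26 of 46 in TPM. The members' summed share of all counts was 0.964% to 0.973% in spermidine libraries, 0.884% to 0.901% in inhibition libraries and 0.853% to 0.856% in control libraries. Only Eif1, Eif2d, Eif3f, Eif4a2 and Eif4e2 were called in 1 direction, higher, by all 4 of these fits (TMM, total counts, DESeq2 size factors and TPM), and no member was called lower by all 4.

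In spermidine over control, 12 members rose and 32 fell, against 41% of all genes called higher, 37.1% called lower and 78.1% in either direction. The median was -0.30 over the members and 0.06 over all genes, and libraries did not overlap for 47 members, against 79.8% of all genes. With total counts 18 were higher and 19 lower, and in TPM 23 were higher and 13 lower. The upward share of member calls was thus 27.3% with TMM factors, 48.6% with total counts and 63.9% in TPM. Over all genes that share was 52.5%, 67.6% and 69.9%. All 4 fits made 11 of the higher calls and 11 of the lower calls. This comparison shares its libraries with both others.

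**Figure D1:**
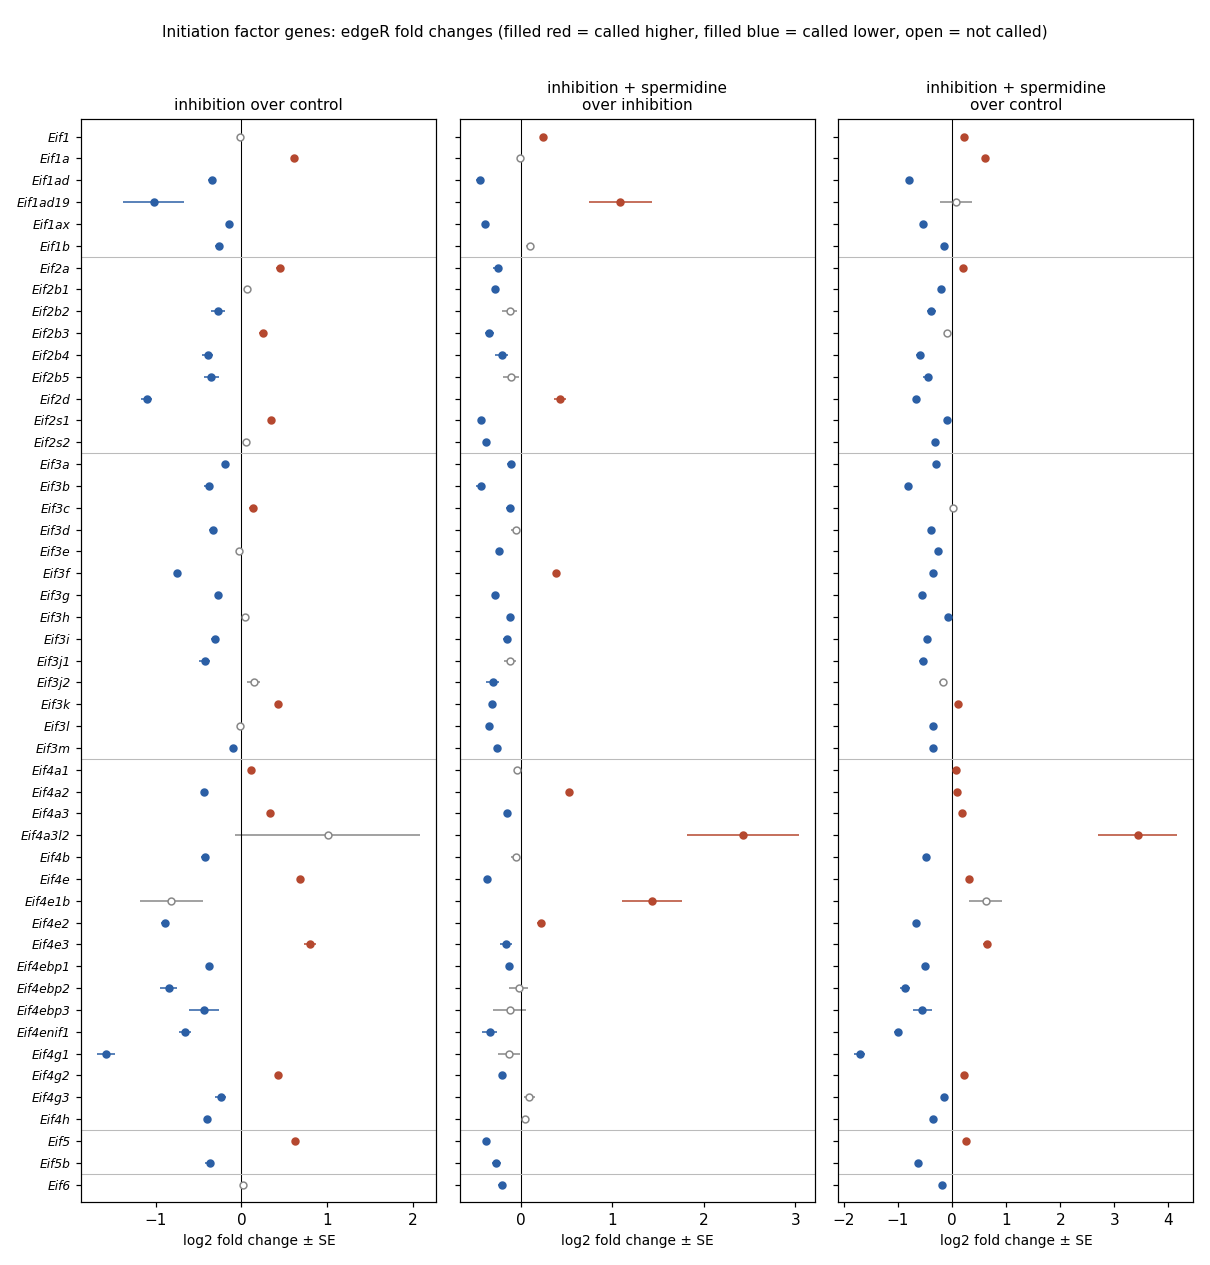
Log2 fold change ± SE (horizontal axis) of the 49 tested initiation factor genes (vertical axis, by family) in 3 comparisons, from the edgeR fit with TMM factors. Filled points passed an adjusted p under 0.05. Eif4g1 has the lowest value in both comparisons with control, at -1.58 and -1.71, and the wide bars belong to members with few counts.

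By group, the eIF2 genes had 3 higher and 4 lower of 9 in inhibition over control. These shares, 33.3% and 44.4%, were near the 36.2% and 36.1% of all genes. DESeq2's size factors, or a fit of only the compared groups, gave 5 higher. In spermidine over inhibition 1 eIF2 gene was higher and 6 were lower (1 and 2 with total counts, 3 and 0 in TPM). In spermidine over control 1 was higher and 7 were lower (3 and 2 with total counts). The 14 eIF3 genes had 2 higher and 8 lower in inhibition over control (5 higher and 5 lower in TPM), 1 higher and 11 lower in spermidine over inhibition (6 higher and 2 lower with total counts), and 1 higher and 11 lower in spermidine over control (3 higher and 8 lower with total counts). Of 17 tested eIF4 genes 5 rose and 10 fell in inhibition over control, 4 rose and 6 fell in spermidine over inhibition (10 and 1 with total counts), and 7 rose and 9 fell in spermidine over control (8 and 6 with total counts, 8 and 3 in TPM). Over all genes 29.1% were called higher and 28.9% lower in spermidine over inhibition, and 41% and 37.1% in spermidine over control. The group medians were 0.05 for eIF2, -0.14 for eIF3 and -0.40 for eIF4 in inhibition over control. They were -0.25 for eIF2, -0.19 for eIF3 and -0.05 for eIF4 in spermidine over inhibition, and -0.33, -0.35 and -0.14 in spermidine over control. In summed TPM the order of the groups was eIF4 (1816 to 1847), eIF3 (1708 to 1752) and eIF2 (586.5 to 605.3) in spermidine libraries. Inhibition libraries had an eIF3 sum of 1588 to 1629, above an eIF4 sum of 1524 to 1545, and an eIF2 sum of 598.4 to 621.4. Control libraries had an eIF3 sum of 1522 to 1578, an eIF4 sum of 1366 to 1415 and an eIF2 sum of 558.0 to 575.1. The eIF4 and eIF3 sums were therefore both highest in spermidine libraries, with no overlap between groups. The eIF2 sums of spermidine and inhibition libraries overlapped. In TPM the median gene also rose in spermidine over inhibition, by 0.20 on the log2 scale. Within the eIF4 sum, Eif4a1 alone averaged 948.1 TPM in spermidine and 783.4 TPM in inhibition libraries.

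The cap-binding genes moved apart under inhibition. Eif4e encodes the protein that grips the cap. It had 335.7, 318.3 and 336.8 CPM in spermidine libraries, 430.9, 414.0 and 430.5 CPM in inhibition libraries and 266.2, 261.8 and 268.4 CPM in control libraries. The groups did not overlap, with inhibition highest and control lowest. Its log2 fold change was 0.68 ± 0.03 (SE, adjusted p = 3.08e-12) in inhibition over control and 0.31 ± 0.03 (adjusted p = 8.86e-08) in spermidine over control. In spermidine over inhibition it was -0.36 ± 0.03 (adjusted p = 4.14e-08), but in TPM the means were 221.8 ± 5.92 and 227.1 ± 4.71 (SD, n = 3 each) and this fall was not called. Eif4e3, a more divergent cap-binding relative, had 24.85, 28.23 and 28.87 CPM in spermidine libraries, 30.83, 29.05 and 31.53 CPM in inhibition libraries, and 18.49, 17.26 and 16.75 CPM in control libraries. Both groups with inhibition stood above control, by a log2 fold change of 0.80 ± 0.07 for inhibition (adjusted p = 1.25e-08) and of 0.64 ± 0.07 for spermidine (adjusted p = 2.07e-07).

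Eif4e2 encodes 4EHP, which binds the cap without recruiting eIF4G and so represses its targets. It had 35.00, 32.77 and 36.11 CPM in spermidine libraries, 29.97, 28.64 and 30.33 CPM in inhibition libraries and 55.77, 54.45 and 53.97 CPM in control libraries. Control libraries were highest and inhibition libraries lowest. The log2 fold change was -0.89 ± 0.05 in inhibition over control (adjusted p = 2.61e-11) and 0.22 ± 0.05 in spermidine over inhibition (adjusted p = 0.000956). Eif4e1b, the oocyte form of eIF4E, stayed at or below 1.17 CPM in every library.

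The largest fall among members above 5 CPM was that of Eif4g1, the main scaffold that joins eIF4E, eIF4A and eIF3. It had 4.83, 3.72 and 4.42 CPM in spermidine libraries, 4.61, 4.86 and 4.65 CPM in inhibition libraries, and 14.91, 12.97 and 14.38 CPM in control libraries. Every library with inhibition lay below every control library, and spermidine and inhibition libraries overlapped. The log2 fold change was -1.58 ± 0.10 in inhibition over control (adjusted p = 3.29e-10) and -1.71 ± 0.10 in spermidine over control (adjusted p = 1.04e-10), a fold of 0.335 and 0.307. The difference between spermidine and inhibition was -0.13 ± 0.12 (adjusted p = 0.368). In inhibition over control 7.35% of tested genes had a log2 fold change at or below that of Eif4g1. Eif4g2 encodes DAP5, which lacks the eIF4E-binding part and serves cap-independent starts. It had 294.0, 288.6 and 294.1 CPM in spermidine libraries, 343.7, 335.7 and 326.9 CPM in inhibition libraries and 245.7, 255.5 and 247.8 CPM in control libraries. With TMM factors inhibition libraries were highest for Eif4g2, at a log2 fold change of 0.43 ± 0.03 over control (adjusted p = 9.67e-10), the opposite direction to Eif4g1. In spermidine over inhibition the log2 fold change of Eif4g2 was -0.20. It turned to 0.06 with total counts and 0.13 in TPM, neither of them called. Eif4g3, the other eIF4G scaffold, had a log2 fold change of -0.24 ± 0.06 in inhibition over control (adjusted p = 0.00296), which in TPM was 0.01 on the log2 scale.

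Among the helicases, Eif4a1 was the most abundant member. It had 1725, 1733 and 1716 CPM in spermidine libraries, 1720, 1797 and 1779 CPM in inhibition libraries and 1677, 1625 and 1607 CPM in control libraries. With TMM factors the groups with inhibition stood above control by small amounts. The log2 fold change was 0.11 ± 0.03 in inhibition over control (adjusted p = 0.00147) and 0.08 ± 0.03 in spermidine over control (adjusted p = 0.0158). The second call was lost with DESeq2 (adjusted p = 0.102) and without the filter on low counts (adjusted p = 0.532). It was also lost without inhibition library 1 or 3, spermidine library 2, or control library 2 or 3 (adjusted p from 0.0593 to 0.176). For Eif4a1 in that comparison total counts gave 0.34 and TPM 0.46. Eif4a2, its close paralogue, is known to act with the CCR4-NOT complex in repression. It had 303.8, 313.2 and 315.5 CPM in spermidine libraries, 222.0, 208.3 and 216.7 CPM in inhibition libraries, and 296.1, 293.5 and 287.1 CPM in control libraries. Inhibition libraries were thus the low group, and spermidine libraries stood just above control. The log2 fold change was -0.44 ± 0.03 in inhibition over control (adjusted p = 1.35e-09) and 0.53 ± 0.03 in spermidine over inhibition (adjusted p = 5.68e-10), the largest rise with spermidine among members above 5 CPM. In spermidine over control it was 0.09 ± 0.03 (adjusted p = 0.0149), a call lost with DESeq2 (adjusted p = 0.0918), without the filter on low counts (adjusted p = 0.358) and without any of 6 libraries (inhibition 1, spermidine 2 or 3, or any control library; adjusted p from 0.0514 to 0.128). Total counts gave 0.35 and TPM 0.47. On the opposite strand the bounds of the gene overlap those of Rfc4, and the kit is not stated to keep strand. Reads from a stretch shared by both genes could therefore not be assigned by strand. The extent of the overlap was not measured.

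The cofactors Eif4b and Eif4h, which stimulate eIF4A, were lower in inhibition than in control libraries, with log2 fold changes of -0.43 ± 0.05 (adjusted p = 5.05e-07) and -0.40 ± 0.04 (adjusted p = 5.22e-08). Eif4a3, the helicase of the exon junction complex rather than of eIF4F, rose by 0.33 ± 0.03 on the log2 scale (adjusted p = 1.29e-07) in the same comparison. Its copies Eif4a3l1 and Eif4a3l2 stayed at or below 0.765 CPM, and reads could be split among such copies. The fold changes of Eif4a3l2 rest on a handful of counts and are not read here.

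The 4 genes that restrain eIF4E were all called lower in inhibition over control and in spermidine over control in the counts, but not all in TPM. Eif4ebp1, the mTOR-controlled inhibitor 4E-BP1, had 197.7, 204.5 and 215.8 CPM in spermidine libraries, 224.9, 220.6 and 229.5 CPM in inhibition libraries and 294.3, 292.1 and 287.2 CPM in control libraries. Its log2 fold change was -0.37 ± 0.03 in inhibition over control (adjusted p = 2.94e-08) and -0.50 ± 0.03 in spermidine over control (adjusted p = 5.89e-10). The second of these falls was not called in TPM, where the means were 190.2 ± 8.84 and 197.2 ± 7.29 (SD, n = 3 each). Eif4ebp2 had 6.65, 6.73 and 8.52 CPM in spermidine libraries, 7.43, 7.22 and 7.35 CPM in inhibition libraries and 12.37, 13.02 and 14.07 CPM in control libraries. Both groups with inhibition lay below control without overlap, by -0.85 ± 0.10 for inhibition (adjusted p = 5.76e-07) and -0.87 ± 0.10 for spermidine (adjusted p = 3.25e-07) on the log2 scale. Eif4enif1, the shuttling protein 4E-T, fell by 0.66 on the log2 scale in inhibition over control (adjusted p = 3.25e-07) and by 1.00 in spermidine over control (adjusted p = 1.84e-09). In TPM neither fall was called, at -0.07 and 0.22 on the log2 scale. The transcript length implied by counts over TPM shifted by -0.53 and -0.90 (log2) in these comparisons, and the gene overlaps Drg1 on the other strand. Eif4ebp3, at 2.30 to 4.88 CPM, had a log2 fold change of -0.44 ± 0.18 in inhibition over control (adjusted p = 0.0363). The call was lost without any of 4 libraries (inhibition 2 or 3, control 1 or 2), with adjusted p from 0.0571 to 0.174.

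**Figure D2:**
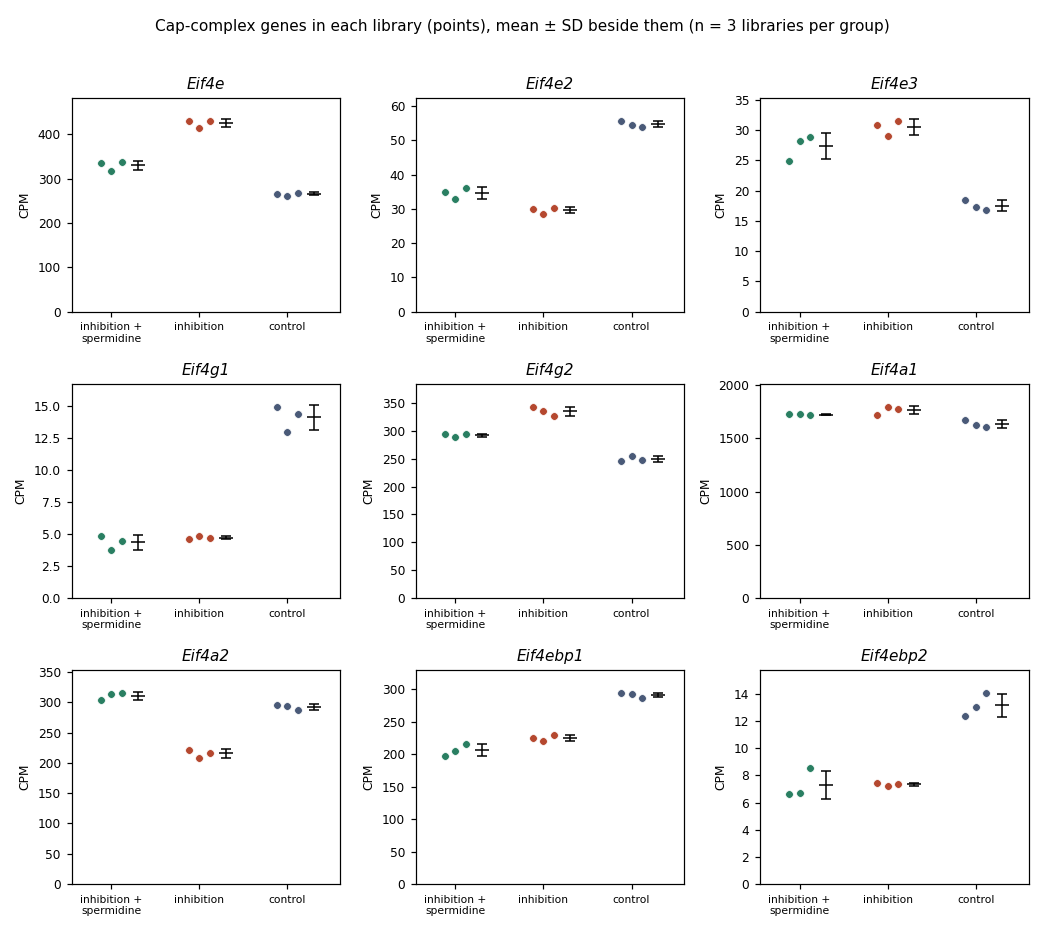
Level (CPM, vertical axis, from 0) of 9 cap-complex genes in each of the 9 libraries (points), with the mean ± SD of each group beside them. Eif4g1 and Eif4ebp2 are low in both groups with inhibition, Eif4a2 is low in inhibition libraries alone, and Eif4e is highest in inhibition libraries.

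Ratios of paralogues within a library do not depend on the scaling between libraries. The log2 ratio of Eif4a2 to Eif4a1 in TPM was -2.70, -2.63 and -2.64 in spermidine libraries, -3.16, -3.29 and -3.24 in inhibition libraries and -2.68, -2.68 and -2.64 in control libraries. Eif4a2 thus stood at 0.159 times Eif4a1 in spermidine, 0.107 times in inhibition and 0.157 times in control libraries, with inhibition libraries apart and the other groups overlapping. The difference of the log2 ratio was 0.57 in spermidine minus inhibition, -0.56 in inhibition minus control and 0.01 in spermidine minus control. The ratio of Eif4e2 to Eif4e was -2.76 ± 0.02 in spermidine, -3.32 ± 0.04 in inhibition and -1.84 ± 0.06 in control libraries (SD, n = 3 each), with no overlap between any of the groups. Eif4g2 over Eif4g1 was 5.76 ± 0.36 in spermidine and 5.96 ± 0.09 in inhibition libraries, which overlapped, and 4.24 ± 0.35 in control libraries. As a linear ratio, Eif4g2 stood at 54.3 times Eif4g1 in spermidine, 62.3 times in inhibition and 19.0 times in control libraries. With 3 libraries against 3, the smallest p of a two-sided exact permutation test is 0.10, so no single ratio could pass 0.05. Of 30 such tests over 10 pairs and 3 comparisons, 25 reached that smallest value, which is 0.12 after Benjamini-Hochberg adjustment.

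**Figure D3:**
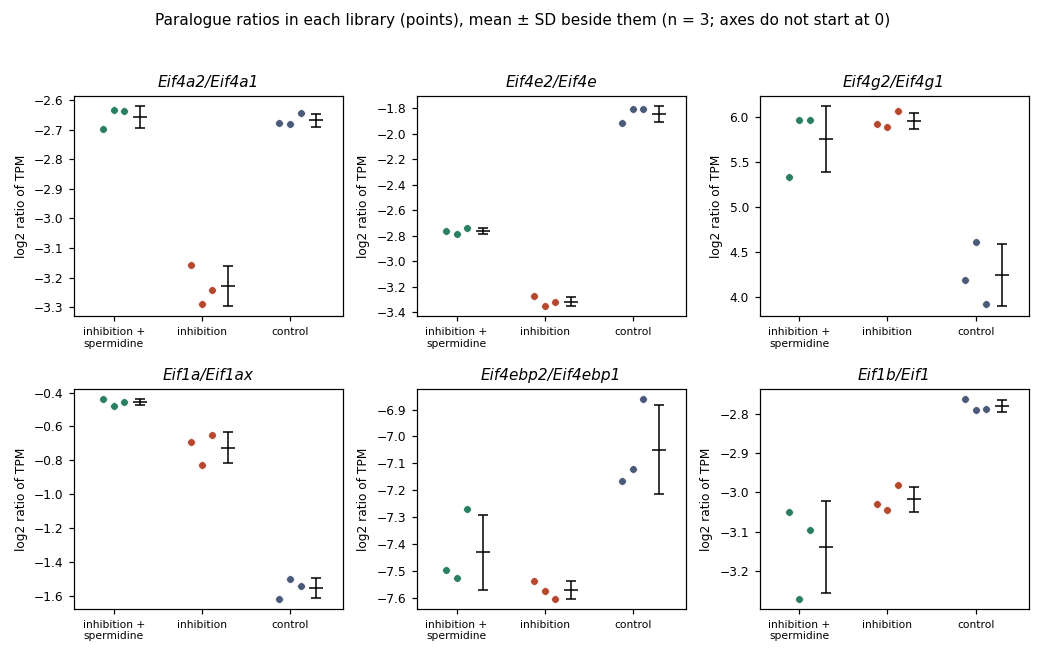
Log2 ratio of TPM (vertical axis, not from 0) for 6 paralogue pairs in each library (points), with mean ± SD of the 3 libraries of a group. For Eif4a2/Eif4a1 the spermidine and control libraries lie between -2.70 and -2.63 and the inhibition libraries between -3.29 and -3.16.

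Of the genes that scan for and select the start codon, Eif5 and Eif1a rose with inhibition. Eif5 encodes the GTPase activator that lets eIF2 release its tRNA at the start codon. It had 414.1, 395.5 and 410.7 CPM in spermidine libraries, 545.7, 520.6 and 516.7 CPM in inhibition libraries, and 346.3, 344.3 and 334.6 CPM in control libraries. Spermidine libraries lay between the other groups, with a log2 fold change of 0.63 ± 0.03 in inhibition over control (adjusted p = 8.83e-12) and 0.25 ± 0.03 in spermidine over control (adjusted p = 1.35e-06). Spermidine over inhibition gave -0.38 ± 0.03 for Eif5 (adjusted p = 2.93e-08), which total counts also called (-0.12) and TPM did not (-0.11). Eif1a had 474.8, 482.8 and 484.6 CPM in spermidine libraries, 489.9, 480.4 and 474.7 CPM in inhibition libraries and 312.1, 320.0 and 313.4 CPM in control libraries. Spermidine and inhibition libraries overlapped, and both stood above control, by 0.61 ± 0.03 on the log2 scale in each case (adjusted p = 2.26e-12 for spermidine and 2.06e-12 for inhibition). With total counts and in TPM, however, Eif1a was called higher in spermidine than in inhibition libraries, by 0.26 and 0.30, and spermidine over control was 0.87 and 0.95.

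Eif1ax, the X-linked copy that encodes nearly the same eIF1A protein, went the other way. It had 127.2, 121.4 and 123.5 CPM in spermidine libraries, 168.1, 161.0 and 158.7 CPM in inhibition libraries, and 183.9, 175.1 and 180.9 CPM in control libraries. The log2 fold change was -0.15 ± 0.03 in inhibition over control (adjusted p = 0.000941), and the log2 TPM ratio of Eif1a to Eif1ax was -0.46 ± 0.02 in spermidine, -0.73 ± 0.09 in inhibition and -1.55 ± 0.06 in control libraries (SD, n = 3 each). Reads shared by the copies could be divided in more than 1 way by the authors' counting. Eif1, which guards against starts at the wrong codon, had 626.6, 646.1 and 619.6 CPM in spermidine libraries, 534.8, 536.3 and 528.1 CPM in inhibition libraries and 535.5, 543.2 and 543.9 CPM in control libraries. Inhibition and control overlapped (log2 fold change -0.02 ± 0.03, adjusted p = 0.493), and spermidine libraries were higher than inhibition libraries by 0.24 ± 0.03 (adjusted p = 9.43e-07). Its paralogue Eif1b fell by 0.26 on the log2 scale in inhibition over control (adjusted p = 0.000111).

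Eif1ad, an eIF1A-like protein with a role in ribosome making, had 45.24, 45.21 and 41.81 CPM in spermidine libraries, 59.14, 59.69 and 61.56 CPM in inhibition libraries and 76.99, 74.50 and 78.15 CPM in control libraries. The groups did not overlap, but in TPM the difference between spermidine and inhibition was 0.14 on the log2 scale and not called, and the gene overlaps Banf1 on the other strand. Its copies Eif1ad2, Eif1ad6 and Eif1ad19 stayed at or below 0.821 CPM.

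The ternary complex is represented by Eif2s1 and Eif2s2, since the gamma subunit genes Eif2s3x and Eif2s3y are outside the set. Eif2s1 encodes eIF2 alpha, the subunit that stress kinases phosphorylate. It had 347.2, 354.8 and 342.2 CPM in spermidine libraries, 477.3, 466.9 and 462.5 CPM in inhibition libraries, and 365.5, 368.6 and 375.8 CPM in control libraries. Inhibition libraries were the high group, with a log2 fold change of 0.34 ± 0.03 over control (adjusted p = 7.53e-09). Spermidine over inhibition gave -0.43 ± 0.03 (adjusted p = 1.67e-09). In TPM the means were 157.8 ± 9.95 in spermidine, 174.0 ± 9.74 in inhibition and 121.5 ± 9.07 in control libraries (SD, n = 3 each), so the fall with spermidine (-0.14 on the log2 scale) was not called, and spermidine libraries stood above control rather than below. Eif2s2, the beta subunit, had 763.4, 713.0 and 727.4 CPM in spermidine libraries, 977.4, 939.2 and 952.2 CPM in inhibition libraries and 938.7, 919.1 and 903.7 CPM in control libraries. It did not pass in inhibition over control (0.05 ± 0.03, adjusted p = 0.114) and was -0.38 ± 0.03 in spermidine over inhibition (adjusted p = 2.27e-08), which was -0.12 with total counts and, in TPM, -0.06 and not called.

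The 5 eIF2B genes encode the factor that reloads eIF2 with GTP. In inhibition over control Eif2b3 rose by 0.25 ± 0.05 on the log2 scale, Eif2b1 did not pass (0.07 ± 0.03, adjusted p = 0.0883), and Eif2b2, Eif2b4 and Eif2b5 fell by 0.27 to 0.39. Eif2b5, the catalytic subunit, had 8.98, 9.31 and 10.07 CPM in spermidine libraries, 11.12, 10 and 9.39 CPM in inhibition libraries, and 12.18, 13.88 and 12.58 CPM in control libraries. Control libraries lay above all others (inhibition over control -0.35 ± 0.09, adjusted p = 0.00151), and spermidine and inhibition libraries overlapped. In TPM they did not, with Eif2b5 at 7.19 to 7.80 in spermidine and 4.57 to 5.93 in inhibition libraries (log2 fold change 0.42, adjusted p = 0.00277 in limma). In TPM Eif2b1 had 53.1 ± 1.62 in inhibition libraries and was the most abundant of the 5, and Eif2b5 at 5.32 ± 0.69 the least (SD, n = 3 each). Eif2b4 overlaps Snx17 on the other strand, and the effective length of Eif2b2 shifted by 0.78 on the log2 scale between inhibition and control.

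Eif2d and Eif2a encode proteins that can bring the initiator tRNA without eIF2, and they moved in opposite directions. Eif2d had 17.40, 16.42 and 15.43 CPM in spermidine libraries, 12.47, 11.58 and 12.69 CPM in inhibition libraries, and 26.01, 26.42 and 26.29 CPM in control libraries. None of the groups overlapped, with a log2 fold change of -1.10 ± 0.06 in inhibition over control (adjusted p = 8.43e-11) and 0.43 ± 0.07 in spermidine over inhibition (adjusted p = 4e-05). Eif2a had 89.18, 86.27 and 88.82 CPM in spermidine libraries, 111.0, 104.4 and 99.48 CPM in inhibition libraries, and 72.99, 74.50 and 82.07 CPM in control libraries. It rose by 0.45 ± 0.05 on the log2 scale in inhibition over control (adjusted p = 1.93e-07). Both genes overlap another on the opposite strand, Eif2d with Rassf5 and Eif2a with Serp1.

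The eIF3 genes encode the subunits of the largest initiation factor. Subunits a, b, c, e, f, h, k, l and m are counted here as core, and d, g, i and j as periphery. Subunit b can also be grouped with g and i. Eif3b was called lower in inhibition over control, so the core and periphery counts depend on its place. The eIF3 genes did not move as a block. In inhibition over control, 4 of 9 core genes fell, 2 rose (Eif3c and Eif3k) and 3 did not pass, and 4 of 5 peripheral genes fell and 0 rose. The shares called lower were 44.4% of the core and 80% of the periphery, against 36.1% of all genes. The share called higher was 22.2% of the core, against 36.2% of all genes. TPM turned the core count, with 5 higher (Eif3c, Eif3e, Eif3h, Eif3k and Eif3l) and 2 lower (Eif3b and Eif3f), and left 3 peripheral genes lower, without Eif3i. Eif3f, a core subunit with deubiquitinase activity, had 135.7, 142.5 and 145.9 CPM in spermidine libraries, 108.6, 103.8 and 111.6 CPM in inhibition libraries and 184.5, 182.9 and 177.7 CPM in control libraries. Inhibition libraries were lowest and control libraries highest, with no overlap. The log2 fold change was -0.75 ± 0.04 in inhibition over control (adjusted p = 8.88e-12) and 0.39 ± 0.04 in spermidine over inhibition (adjusted p = 1.92e-07). With TMM factors no other eIF3 gene was called higher in spermidine over inhibition, whereas total counts called 6 and TPM 7, Eif3f among them. Eif3k, a subunit known to be dispensable in Caenorhabditis elegans, had 203.3, 204.4 and 210.7 CPM in spermidine libraries, 250.7, 248.7 and 267.6 CPM in inhibition libraries and 192.0, 194.8 and 185.4 CPM in control libraries. Its log2 fold change in inhibition over control was 0.42 ± 0.03 (adjusted p = 7.89e-09).

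Eif3a and Eif3b build the scaffold on which the complex assembles. Eif3a had 78.39, 72.15 and 74.44 CPM in spermidine libraries, 82.17, 81.06 and 79.49 CPM in inhibition libraries, and 89.41, 91.00 and 96.25 CPM in control libraries. Eif3b had 27.59, 28.62 and 28.54 CPM in spermidine libraries, 36.17, 39.64 and 38.47 CPM in inhibition libraries, and 52.44, 49.90 and 47.22 CPM in control libraries. Neither gene's groups overlapped, and control libraries were highest for both. For Eif3b the log2 fold change was -0.38 ± 0.05 in inhibition over control (adjusted p = 2.61e-06) and -0.82 ± 0.05 in spermidine over control (adjusted p = 1.96e-10). For Eif3a the same comparisons gave -0.19 ± 0.04 (adjusted p = 0.000465) and -0.30 ± 0.04 (adjusted p = 3.91e-06), whereas TPM gave -0.06, not called, and 0.15, called higher. The other eIF3 genes had log2 fold changes between -0.43 (Eif3j1) and 0.14 (Eif3j2) in inhibition over control. The Eif3j1 value is uncertain, because its effective length shifted by 1.82 on the log2 scale, it overlaps Spg11 on the other strand and Eif3j2 is a near copy. Eif3c passed by little (0.13 ± 0.04, adjusted p = 0.0138), and its adjusted p was 0.058 without inhibition library 1, 0.0589 without control library 1 and 0.1 without control library 3.

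**Figure D4:**
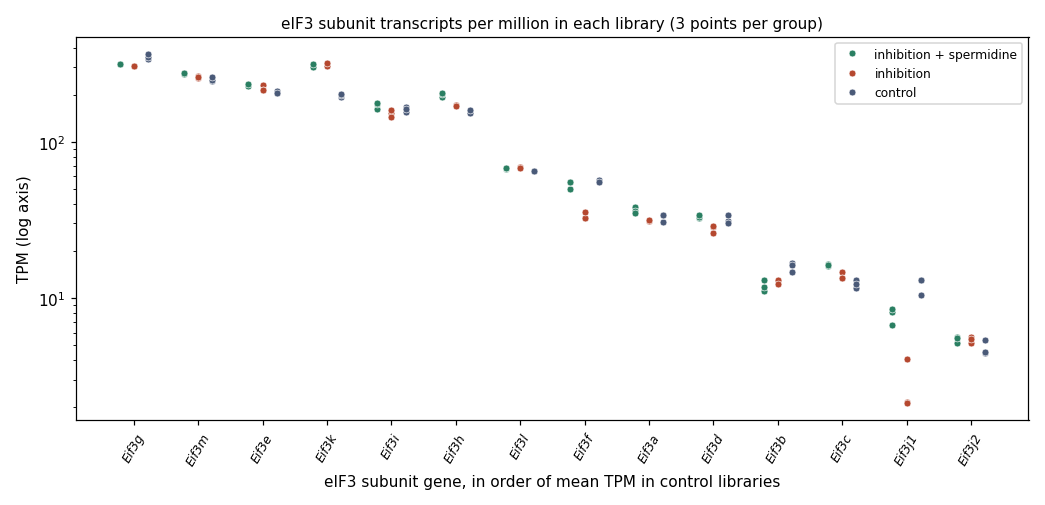
Level in TPM (vertical axis, log scale) of the 14 eIF3 subunit genes in each library, 3 points per group, in order of their mean in control libraries. Levels span 2.13 to 362.6 TPM, and Eif3f and Eif3k separate inhibition from control libraries in opposite directions.

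Although the subunits share 1 complex, their transcript levels per length were far apart. In control libraries Eif3g was highest at 350.9 ± 11.3 TPM, followed by Eif3m at 250.9 ± 7.94, Eif3e at 207.0 ± 2.86 and Eif3k at 197.7 ± 4.31 (SD, n = 3 each), where Eif3e at 204.8 to 210.2 and Eif3k at 192.8 to 201.0 did not overlap. Eif3i at 161.3 ± 6.33 and Eif3h at 156.2 ± 3.90 TPM overlapped. The lower ranks were Eif3l (64.7), Eif3f (56.1), Eif3a (32.8), Eif3d (31.9), Eif3b (15.9), Eif3c (12.3), Eif3j1 (12.2) and Eif3j2 (4.80), where Eif3a overlapped Eif3d and Eif3c overlapped Eif3j1. In inhibition libraries Eif3k led at 311.7 ± 8.63 TPM, beside Eif3g at 304.3 ± 0.96, and in spermidine libraries Eif3g led at 313.4 ± 1.71 with Eif3k at 306.0 ± 5.90. Across the 14 genes the level fell with the length of the longest annotated transcript (Spearman correlation -0.84 in spermidine, -0.86 in inhibition and -0.82 in control libraries). This describes genes measured in the same libraries, with TPM itself divided by a length.

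Eif5b and Eif6 act when the subunits join, Eif5b as the GTPase that joins them and Eif6 as a factor that keeps the large subunit apart. Eif5b had 114.7, 99.05 and 102.2 CPM in spermidine libraries, 129.6, 126.7 and 123.3 CPM in inhibition libraries and 173.7, 158.2 and 158.8 CPM in control libraries. With TMM factors control libraries were highest and spermidine libraries lowest. The log2 fold change was -0.37 ± 0.05 in inhibition over control (adjusted p = 4.03e-06) and -0.63 ± 0.05 in spermidine over control (adjusted p = 5.09e-09). In spermidine over inhibition it was -0.26, but -0.003 with total counts and 0.04 in TPM, neither of them called. Eif5b overlaps Rev1 on the other strand. Eif6 had 66.70, 64.37 and 69.13 CPM in spermidine libraries, 75.29, 80.19 and 75.15 CPM in inhibition libraries and 76.68, 77.44 and 73.72 CPM in control libraries. Inhibition and control overlapped (0.02 ± 0.04, adjusted p = 0.674). Its fall in spermidine over inhibition (-0.21 ± 0.04, adjusted p = 0.00036) turned to a rise of 0.05 with total counts.

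Beside the members, 5 lists of neighbouring genes were counted. Over all genes 36.2% were called higher and 36.1% lower in inhibition over control. Spermidine over inhibition had 29.1% and 28.9%, and spermidine over control 41% and 37.1%. With total counts 81.1% of all calls were upward in spermidine over inhibition and 67.6% in spermidine over control. Of 9 genes for eIF2 kinases, the eIF2 alpha phosphatase and their readouts, 1 rose and 3 fell in inhibition over control, 5 rose and 3 fell in spermidine over inhibition (6 and 1 with total counts), and 2 rose and 5 fell in spermidine over control (4 and 2 with total counts). Impact, an inhibitor of the kinase GCN2, averaged 207.5 CPM in spermidine, 134.9 CPM in inhibition and 62.7 CPM in control libraries, with a log2 fold change of 1.10 ± 0.04 in inhibition over control (adjusted p = 3.62e-13) and 0.62 ± 0.04 in spermidine over inhibition (adjusted p = 1.29e-09). Ppp1r15a, the stress-induced phosphatase subunit GADD34, averaged 58.8 CPM in spermidine, 47.6 CPM in inhibition and 203.6 CPM in control libraries (inhibition over control -2.09 ± 0.03, adjusted p = 3.9e-18). Ddit3, which encodes the stress factor CHOP, averaged 90.1 CPM in spermidine, 57.0 CPM in inhibition and 89.8 CPM in control libraries. Spermidine libraries stood above inhibition libraries (0.66 ± 0.04, adjusted p = 2.86e-09) and beside control libraries (0.00 ± 0.04, adjusted p = 0.949), but with total counts above control too, by 0.27.

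Of 17 regulators of the cap complex 6 rose and 8 fell in inhibition over control (35.3% and 47.1%, against 36.2% and 36.1% of all genes). Then 3 rose and 8 fell in spermidine over inhibition (8 and 2 with total counts). In spermidine over control 7 rose and 9 fell (8 and 7 with total counts, 7 and 6 in TPM). Pdcd4, which holds back eIF4A, averaged 1570 CPM in spermidine, 1727 CPM in inhibition and 3417 CPM in control libraries (inhibition over control -0.98 ± 0.03, adjusted p = 2.08e-15). Paip1 and Paip2b bind the poly(A)-binding protein with opposite effects on translation. In inhibition over control Paip1 rose by 1.04 ± 0.04 (adjusted p = 1.04e-12) and Paip2b had -2.27 ± 0.05 (adjusted p = 2.92e-16), while Pabpc1, the binding protein itself, had -0.56 ± 0.03 (adjusted p = 7.97e-12). The list headed mTOR arm holds 12 genes, among them the RSK kinase genes Rps6ka1 and Rps6ka3. In inhibition over control 2 were higher and 7 lower (3 and 3 of 9 tested in TPM). Spermidine over inhibition had 2 and 4 (4 and 2 with total counts), and spermidine over control 1 and 7 (4 and 5 with total counts, 4 and 2 in TPM). Rps6ka3, the kinase RSK2, rose with inhibition (38.1 CPM in inhibition against 12.2 CPM in control libraries, log2 fold change 1.63 ± 0.08, adjusted p = 6.39e-12). Rps6ka3 and Rps6ka1 were the 2 higher calls of this list in that comparison with TMM factors. Both are RSK kinase genes, not genes of the mTOR complex or its S6 kinases, and no other gene of the list was called higher. The 7 lower were Mtor (-0.43 on the log2 scale), Rptor (-1.13), Rps6kb1 (-0.16) and Rps6kb2 (-0.92), and Tsc1 (-1.07), Tsc2 (-0.33) and Ddit4 (-0.51). The products of Tsc1, Tsc2 and Ddit4 hold mTOR back, so the list fell on both sides of the pathway. In TPM the falls of Mtor and Tsc2 were not called, and Rptor and Ddit4 were not tested.

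Of 9 genes for recycling and start-site helpers 3 rose and 4 fell in inhibition over control (33.3% and 44.4%, against 36.2% and 36.1% of all genes). The counts were 1 and 6 in spermidine over inhibition (3 and 1 with total counts). They were 2 and 5 in spermidine over control (4 and 3 with total counts, 3 and 3 in TPM). Bzw1, an eIF5 mimic that makes start selection stricter, averaged 182.7 CPM in spermidine, 243.5 CPM in inhibition and 130.9 CPM in control libraries, and the fall in spermidine over inhibition (-0.41 ± 0.04, adjusted p = 7.07e-08) kept its direction in TPM. Of 12 elongation and release genes 3 rose and 7 fell in inhibition over control, 2 and 6 in spermidine over inhibition (7 and 4 with total counts), and 1 and 8 in spermidine over control (5 and 4 with total counts, 6 and 2 in TPM). Eef2, which moves the ribosome along the message, averaged 74.8 CPM in spermidine, 69.5 CPM in inhibition and 223.3 CPM in control libraries (inhibition over control -1.68 ± 0.04, adjusted p = 4.91e-16).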

How the data were processed

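RNA was measured in 9 libraries of 1500 sorted cells each. The authors deposited, per gene and library, estimated counts and TPM, per the file headers. Only 48.2% of the estimated counts are whole to within 1e-06, and the step that made them is not given in the sources used here. The submitters' processing notes name Trim Galore 0.6.2, STAR 2.6.1d, HTSeq 0.10.0, edgeR 3.24.3 and mm10, without roles. The transposase kit is not stated to keep strand.

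Estimated counts were rounded and tested with edgeR 4.0.16 in R 4.3.3 (TMM factors, filterByExpr, 14461 of 19454 genes, quasi-likelihood test over all 9 libraries, Benjamini-Hochberg threshold 0.05). The scripts were tested on simulated data. CPM values use TMM factors. Libraries held 16096276 to 25360256 counts, so that 3 counts equal 0.118 to 0.186 CPM, a floor that reflects counting error alone. Deposited TPM values were compared with limma 3.58.1 as log2(TPM + 1) in genes of mean TPM of at least 1. Such fold changes understate low genes. DESeq2 1.42.0, other scalings, filters, pseudocounts and left-out libraries were alternatives.

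The members and gene lists were chosen with earlier results of these data known. All members could be named. Values in every library were given for members called, not overlapping and of mean level of at least 5 CPM, namely the 5 higher and 5 lower with the largest change per comparison, plus 14 central factors. Eif3k was given in every library too, outside this rule. Of each neighbouring list up to 4 genes with the smallest p could be named, and of the mTOR list all lower calls in inhibition over control were also named. Counts per gene differed between libraries of a group by more than sampling noise (mean chi-squared per gene 2.45 to 7.75), so all were kept. Samples with the same number were not treated as pairs, because the correlations of their deviations, from -0.12 to 0.18, did not all exceed 0.1. Promoters came from RefSeq, and gene positions from GENCODE M21 (mm10), in which 52 of 52 members matched.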

Additional observations from a re-analysis of the deposited data

How the results depend on the processing

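Of the 39 members called in inhibition over control, 30 kept their call and direction under every alternative run, and Eif1ad19, Eif2b2, Eif3a, Eif3c, Eif3i, Eif3m, Eif4ebp3, Eif4enif1 and Eif4g3 did not. Of the named calls, 5 of 16 were kept in spermidine over inhibition (Eif1, Eif2d, Eif3f, Eif4a2 and Eif4e2) and 11 of 19 in spermidine over control. The cause was not tested where a value moved, beyond the scaling shifts given with the counts.

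Scaling by total counts gave, in spermidine over inhibition, 21 members higher and 8 lower, with 2 eIF2 genes lower, 6 eIF3 genes higher and 2 lower, and 10 eIF4 genes higher and 1 lower. In spermidine over control it gave 19 members lower, 3 eIF2 genes higher and 2 lower, and 3 eIF3 genes higher. It turned the log2 fold change in spermidine over inhibition to 0.16 for Eif2b5, 0.15 for Eif3a, 0.23 for Eif4a1, 0.13 for Eif4ebp1, 0.24 for Eif4ebp2, 0.13 for Eif4g1 and 0.0522 for Eif6, and in spermidine over control to 0.17 for Eif2s1 and 0.0740 for Eif6.

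TPM with limma, at either pseudocount (1 or 0.1), gave 5 eIF3 genes higher and 5 lower in inhibition over control. In spermidine over inhibition it gave 21 members higher and 0 lower (3 and 0 for eIF2, 7 and 0 for eIF3, 8 and 0 for eIF4), and in spermidine over control 23 higher and 13 lower (4 and 4 for eIF2, 6 and 3 for eIF3, 3 lower for eIF4). Without the filter these were 4 and 5 for eIF3 in inhibition over control, 26 and 0 (3 and 0, 7 and 0, 11 and 0) in spermidine over inhibition, and 27 and 12 (4 and 4, 6 and 3, 11 and 3) in spermidine over control. In inhibition over control TPM turned the log2 fold change (pseudocount 1, with or without the filter, and then 0.1) to 0.0626 and 0.0627 for Eif1, -0.0333 and -0.0334 for Eif2s2, 0.0859 and 0.0863 for Eif3e, 0.0870 and 0.0881 for Eif3l, 0.0481 and 0.0483 for Eif3m and 0.0081 and 0.0091 for Eif4g3. Spermidine over inhibition turned likewise to 0.14 and 0.15 for Eif1ad, 0.0368 and 0.0370 for Eif1ax, 0.42 and 0.48 for Eif2b5, 0.21 and 0.22 for Eif3a, 0.28 for Eif4a1, 0.17 and 0.18 for Eif4ebp1, 0.16 and 0.29 for Eif4ebp2, 0.21 and 0.31 for Eif4g1, 0.0447 and 0.0475 for Eif5b and 0.10 for Eif6. In spermidine over control it was 0.38 for Eif2s1, 0.15 for Eif3a, 0.22 and 0.25 for Eif4enif1 and 0.28 for Eif6.

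DESeq2's size factors in edgeR, and a fit of only the compared groups, each gave 5 eIF2 genes higher in inhibition over control, and the fit of only the compared groups turned Eif3l to 3e-04. Without a filter on low counts 0 eIF3 genes were higher in spermidine over control. From estimated counts in place of TPM, log2 ratios differed by 0.22, -0.12 and 0.10 for Eif4a3/Eif4a1, by -1.56, 0.59 and -0.98 for Eif4e2/Eif4e and by 0.56, -0.19 and 0.37 for Eif3j2/Eif3j1 (inhibition over control, spermidine over inhibition, spermidine over control). They differed by 2.01 and 1.94 for Eif4g2/Eif4g1 in inhibition and in spermidine over control, by 0.22 for Eif4g3/Eif4g1 in spermidine over inhibition (-0.00 in TPM), by 0.12 for Eif4e3/Eif4e in inhibition over control, and for Eif1a/Eif1ax by 0.39 in spermidine over inhibition and 1.15 in spermidine over control.

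Leaving out each library in turn gave 11 to 12 members higher and 25 to 27 lower in inhibition over control, 8 to 9 and 25 to 29 in spermidine over inhibition, and 10 to 12 and 31 to 34 in spermidine over control. Higher eIF3 genes ranged from 1 to 2 in inhibition over control (1 without inhibition library 1 or control library 3) and from 0 to 1 in spermidine over control (0 without control library 3). Log2 ratio differences ranged from -0.0488 to 0.0469 for Eif4a3/Eif4a1 in spermidine over control, and in spermidine over inhibition from -0.3051 to 0.0111 for Eif4g2/Eif4g1 and from -0.1237 to 0.0617 for Eif4g3/Eif4g1. Fold changes ranged from -0.2506 to 1.9151 for Eif4a3l2 and from -0.0246 to 0.0378 for Eif6 in inhibition over control, and from -0.1352 to 0.0353 for Eif4ebp2 in spermidine over inhibition. A replicate block on the sample numbers, which share only a number, gave 27 members lower in place of 28 in spermidine over inhibition (5 eIF4 genes in place of 6) and otherwise the same member counts. Leaving out members whose implied length shifted by over 0.5, chosen after seeing the data, gave 12 higher and 23 lower in inhibition over control.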
